A study of Mus musculus with 96 samples.

Results

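10 transcription factor genes of the gut, the foregut and neighbouring lineages were followed through mouse livers, liver tumours, metastases and liver organoids: Cdx1, Cdx2, Pdx1, Gata4, Gata6, Hnf4g, Sox17, Pax9, Dbx2 and Ebf1. They were matched by symbol, all 10 were found among the 34591 gene symbols of the count files, and some had been chosen by their values in the tumours and organoids of this study. Their levels in primary tumours, organoids and liver are therefore given as a description with no p-value, and counts of members called by the fits across all genes are listed there once, with nothing drawn from them. RNA sequencing covered 96 libraries of 14 kinds, and total RNA was prepared with a Qiagen RNeasy Micro kit under a stranded protocol. The tumour and line names PPTR, PNR, LCS, HBS and F2 are not expanded in the labels and are used here as given, and the labels state neither genotype, strain, age nor which libraries came from separate animals. Where libraries share an animal or a culture, the p-values measure a spread that may be technical.

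The groups were as follows. PPTR metastases comprised 2 from intestine and 1 each from lung, peritoneum and within the liver, and stood against 11 PPTR primary tumours. LCS-driven tumours, which carry the name of an organoid line in their labels without a statement of how they were made, comprised 5 lung metastases, 3 peritoneal metastases and 10 primary tumours. PNR primary tumours numbered 9. Organoids, three-dimensional cultures grown without treatment, comprised 19 LCS libraries of 5 lines, 11 HBS libraries of 6 lines, 4 libraries of a line named HBS1_F2, and 6 libraries of normal liver organoids. The HBS1 lineage also gave 3 HBS1_F2-driven peritoneal metastases, 2 HBS1_F2-driven primary tumours and 2 HBS1-driven primary tumours. Normal liver, the baseline of the study, was represented by 6 libraries.

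Cdx1, Cdx2 and Pdx1 encode homeodomain proteins of the ParaHox group, which sets the front-to-back identity of the gut tube. Cdx1 and Cdx2 act in the intestinal epithelium, and Pdx1 acts in the duodenum, the antrum of the stomach and the pancreas. Gata4 and Gata6 encode zinc finger factors of early endoderm, Hnf4g encodes a nuclear receptor of the intestinal and renal epithelium related to the hepatocyte factor Hnf4a, and Sox17 marks early endoderm, embryonic bile duct and endothelium. Pax9 is needed for the pharyngeal pouches and is expressed in foregut epithelium. Dbx2 is a homeobox gene best known from the neural tube, and Ebf1 is a master regulator of B cell development that is also expressed in stromal and fat precursor cells.

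The sequence before the start is shown for Cdx2, Pdx1, Pax9 and Dbx2, which had no read in at least 5 of 6 normal livers and reached over 10 CPM (the reads of a gene, scaled to the size of the library) in another kind of library. Cdx1 met the same description and is not shown. The 250 bases upstream of each annotated start were read from RefSeq's mouse table (build GRCm38.p6, a different build from that of the counts), 5′ to 3′ on the gene's strand, with matches to a searched motif in capitals.
Cdx2, chr5:147307250-147307499, minus strand: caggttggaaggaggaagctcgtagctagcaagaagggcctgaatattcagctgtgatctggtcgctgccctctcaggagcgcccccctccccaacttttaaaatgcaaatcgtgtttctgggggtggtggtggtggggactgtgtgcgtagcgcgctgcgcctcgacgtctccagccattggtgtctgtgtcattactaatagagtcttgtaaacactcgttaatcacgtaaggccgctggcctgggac
Pdx1, chr5:147269847-147270096, plus strand: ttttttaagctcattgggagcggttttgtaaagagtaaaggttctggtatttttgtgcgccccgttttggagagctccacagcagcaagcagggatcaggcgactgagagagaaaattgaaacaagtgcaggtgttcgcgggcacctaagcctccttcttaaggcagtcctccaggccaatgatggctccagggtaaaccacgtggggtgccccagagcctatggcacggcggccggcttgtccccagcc
Pax9, chr12:56695221-56695470, plus strand: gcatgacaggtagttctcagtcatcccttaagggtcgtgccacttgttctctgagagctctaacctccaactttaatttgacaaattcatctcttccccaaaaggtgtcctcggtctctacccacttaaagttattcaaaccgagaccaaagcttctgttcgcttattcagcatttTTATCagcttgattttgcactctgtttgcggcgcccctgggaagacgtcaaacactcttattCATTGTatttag
Dbx2, chr15:95654772-95655021, minus strand: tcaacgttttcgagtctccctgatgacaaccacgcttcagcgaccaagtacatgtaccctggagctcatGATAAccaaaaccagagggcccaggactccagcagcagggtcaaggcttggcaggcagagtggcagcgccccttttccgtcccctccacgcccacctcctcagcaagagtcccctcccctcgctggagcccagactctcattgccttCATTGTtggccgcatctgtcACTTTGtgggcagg
The letters searched on both strands were GATAA for GATA factors, TTTATG for CDX, CAAAGT for HNF4 and ACAATG for SOX factors, which are held by 22.6%, 10.8%, 12.6% and 10.7% of 32851 mouse promoter windows of this length. The Dbx2 window held the GATA, HNF4 and SOX letters once each, the Pax9 window held those of GATA and SOX once each, and none of the 4 was found in the Cdx2 and Pdx1 windows. The C plus G share was 58.8% for Dbx2, 55.2% for Cdx2, 54.8% for Pdx1 and 43.6% for Pax9, with 9, 13, 10 and 7 CpG pairs. Pdx1 and Cdx2 are next to each other in RefSeq's gene order. A match of letters is a description and shows no binding.

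Reads given to genes numbered 4393199 in the shallowest and 87058563 in the deepest library. Labelled tissues carried their markers: the summed level of 10 hepatocyte genes was 69262 to 106110 CPM in normal liver, and in normal liver organoids it was 1.95 to 43.1 CPM beside 2008 to 4039 CPM for 8 biliary genes. Lung metastases carried lung epithelium markers, with 907 to 1945 CPM over 7 lung epithelium genes in the LCS-driven ones and 1823 CPM in PPTR lung metastasis 1. The library labelled HBS1_F2 organoid 2 stood apart: the share of reads given to Rpl34-ps1 among those of Rpl34 and this copy of it was 84.8% there and 8.11% to 19.3% in the other 3 HBS1_F2 organoid libraries, and its genes lay closer to LCS organoids (SD of log2 ratios 1.04 to 1.46) and HBS organoids (1.04 to 1.24) than to its own group (1.53 to 1.58). HBS1_F2 values are therefore given with and without it. The same share was 71.7% to 92.4% in all PPTR and LCS libraries, 5.06% to 8.70% in PNR tumours, HBS organoids and normal liver organoids, and 7.80% to 80.3% in normal liver, so organoid and tumour kinds differ in it as well as in their names, and its part in the results was not tested. In tissue and tumours, fewer cells of a type and less RNA per cell cannot be told apart.

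**Figure D1:**
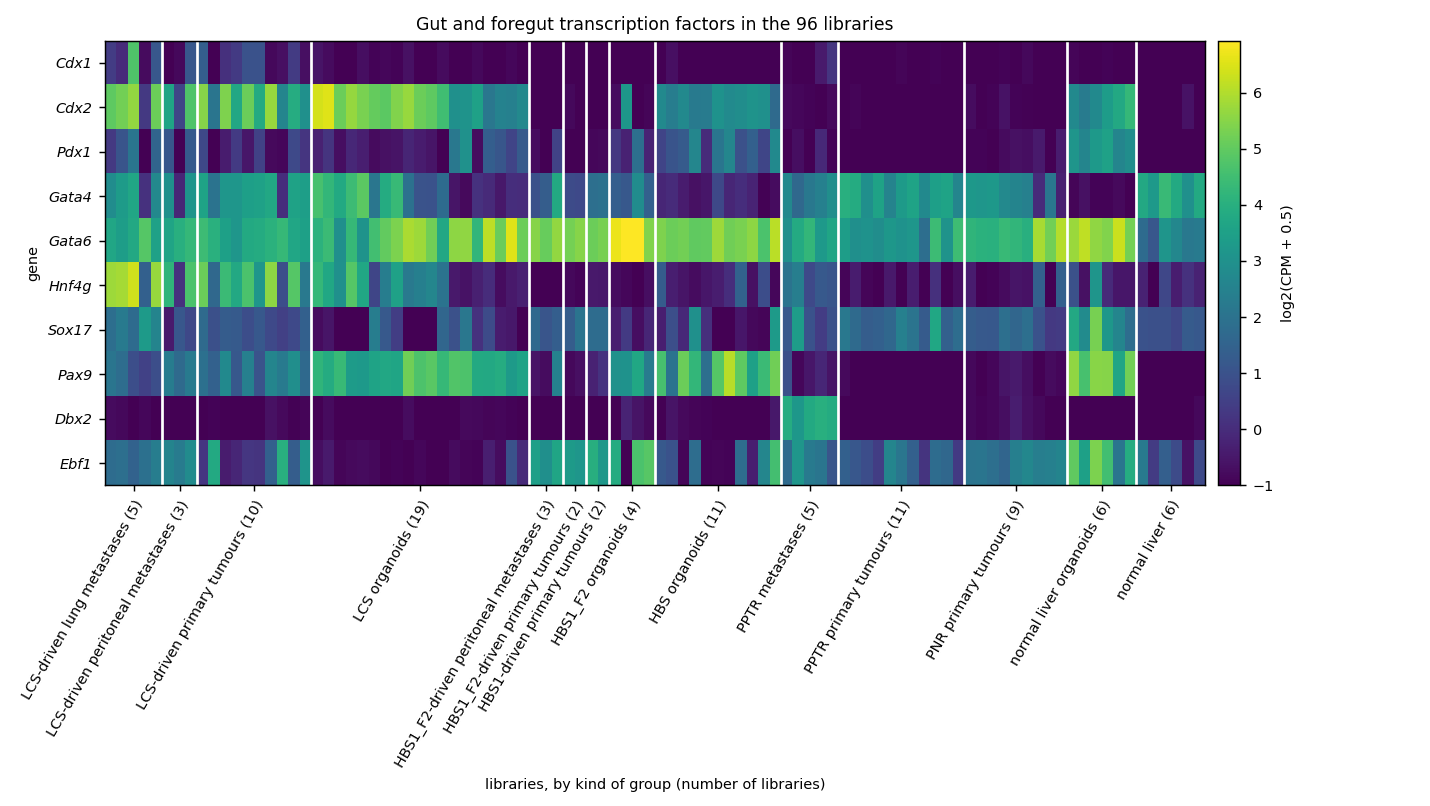
Level of each of the 10 genes (rows) in each of the 96 libraries (columns, grouped by kind), as colour on a log2(CPM + 0.5) scale. Cdx2, Pdx1 and Pax9 were dark in liver and PPTR primary tumours. Cdx2 and Pax9 were bright in most organoids, while Pdx1 was on average brightest in normal liver organoids and dark in many LCS organoids. Gata4 was dark in normal liver organoids and brighter in liver, and Dbx2 was bright in the 5 PPTR metastases.

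Cdx2 was present in every LCS, HBS and normal liver organoid library and near 0 in liver. It was 3.88 to 91.8 CPM in LCS organoids (median 30.6, n = 19), 2.81 to 7.84 CPM in HBS organoids (median 6.25, n = 11) and 4.45 to 19.0 CPM in normal liver organoids (median 8.07, n = 6), whereas normal liver had no Cdx2 read in 5 libraries and 0.149 CPM in the other. All 6 organoid libraries from normal liver thus lay above all livers. The ratio of counts, each over its summed library size, was 978 for normal organoids over liver, with an exact 95% counting interval of 175 to 38661 that covers counting error only.

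Among LCS lines the Cdx2 mean was 52.2 CPM in LCS1, 49.1 in LCS2, 34.6 in LCS3, 8.73 in LCS4 and 5.07 in LCS5. The first 3 lines were above every normal liver organoid library on average, and LCS4 and LCS5 lay within their range. Relative to HBS lines, which averaged 2.81 to 7.73 CPM, the log2 fold change was 2.40 ± 0.54 (SE, 5 against 6 lines). Within a block of library identifiers, runs of numbers whose meaning the labels do not give, LCS3 and LCS4 against 4 HBS lines gave 1.70 ± 0.48.

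Cdx2 was also present in the LCS-driven tumours. It was 3.71 to 51.2 CPM in the 10 primary tumours (median 14.3), while PPTR primary tumours had 0 reads in 10 libraries and 0.042 CPM in 1, and PNR primary tumours reached at most 0.149 CPM. The groups of LCS-driven and PPTR primary tumours did not overlap, and the ratio of counts was 9815 (exact 95% counting interval 1761 to 387720). In the HBS1 lineage, the 7 tumours held at most 0.060 CPM, HBS1_F2 organoids held 0.101, 8.63, 0 and 0.037 CPM, that is at most 0.101 CPM without library 2, and HBS1 organoid libraries held 4.31 to 6.25 CPM.

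Cdx1, the other intestinal caudal gene, was low nearly everywhere. Its highest value was 26 CPM in LCS-driven lung metastasis 3, and the other 4 lung metastases had 0.814, 0.487, 0.088 and 1.71 CPM. LCS-driven primary tumours had 0 to 2.06 CPM (median 0.670), LCS organoids at most 0.167 CPM, and normal liver no read. Cdx1 was near 0 in most libraries, and tumours of the LCS lineage held the higher values. The fitted log2 fold change of LCS-driven primary tumours over LCS lines was 3.82 ± 0.97 (SE, 10 tumours and 5 lines).

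Hnf4g varied widely within the LCS lineage. The line means were 16.7 CPM in LCS1, 7.38 in LCS2, 4.57 in LCS3, 0.232 in LCS4 and 0.287 in LCS5, the same high and low lines as for Cdx2. LCS-driven primary tumours held 1.36 to 47.0 CPM (median 17.0), all above the PPTR primary tumours, which held 0 to 0.562 CPM (median 0.043), with a log2 fold change of 6.85 ± 0.74 (7.41 ± 0.74 and 5.48 ± 1.55 within 2 identifier blocks). Normal liver organoids had 0.141 to 8.24 CPM (median 0.335), HBS organoids 0.053 to 2.32 CPM (median 0.274) and normal liver 0 to 1.10 CPM (median 0.344).

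Pdx1 and Pax9 were on average highest in normal liver organoids. Pdx1 was 5.54 to 11.1 CPM there (median 7.54), against 0 reads in all 6 livers, at least 269-fold higher with 3 counts over the livers taken as the floor. Pax9 was 12.2 to 48.5 CPM (median 40.9), again against no read in any liver, at least 1223-fold higher. Both genes had no overlap between organoids and liver, the tissue named in the organoids' label. Of all genes tested between these groups, 74.8% were called. All 6 livers lay in identifier block 016, which held 1 of the organoid libraries, with 3 in block 040 and 2 in block 045. The share of counts in ribosomal repeats was 10.7% to 25.8% in liver and 0.26% to 0.72% in normal liver organoids. The part of block and of this share in the differences of any member between these groups was not tested. The share of all genes without overlap is not given here for any comparison, so nothing is read from a lack of overlap in the members.

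LCS and HBS organoids overlapped with normal liver organoids in Pax9, and LCS lines differed among themselves in Pdx1. Pax9 was 9.03 to 36.6 CPM in LCS organoids (median 14.2) and 3.20 to 66.5 CPM in HBS organoids (median 23.8). The Pdx1 line means were 0.289, 0.260 and 0.204 CPM in LCS1, LCS2 and LCS3, and 3.88 and 1.67 CPM in LCS4 and LCS5, so the lines high in Cdx2 and Hnf4g were low in Pdx1. HBS organoids held 0.490 to 6.31 CPM of Pdx1 (median 1.93). The log2 fold change of Pdx1 over normal liver organoids was -2.74 ± 0.70 for LCS lines.

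Pax9 was lower in LCS-driven primary tumours than in LCS organoids, and the labels do not say which line a tumour came from. LCS-driven primary tumours held 1.53 to 7.0 CPM (median 3.81), all below every LCS organoid library, with a log2 fold change of -2.23 ± 0.34 (-1.89 ± 0.47 within the identifier block that holds 7 of the tumours and LCS1 and LCS2). PPTR primary tumours had 1 library at 0.075 CPM and 10 at 0, so LCS-driven primaries were higher in all 10 libraries (ratio of counts 886, exact 95% counting interval 245 to 7322). Pdx1 was 0 to 1.20 CPM in LCS-driven primary tumours (median 0.471) against no read in 11 PPTR primary tumours, at least 77.5-fold higher. HBS1_F2 organoids had 7.50, 7.64, 12.7 and 4.43 CPM of Pax9, and 8.21 ± 4.17 CPM (SD, n = 3) without library 2. HBS1_F2-driven primary tumours held 0.060 and 0.132 CPM of Pax9. HBS1_F2-driven peritoneal metastases held 0.104 to 5.17 CPM, which overlapped the HBS1_F2 organoids.

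**Figure D2:**
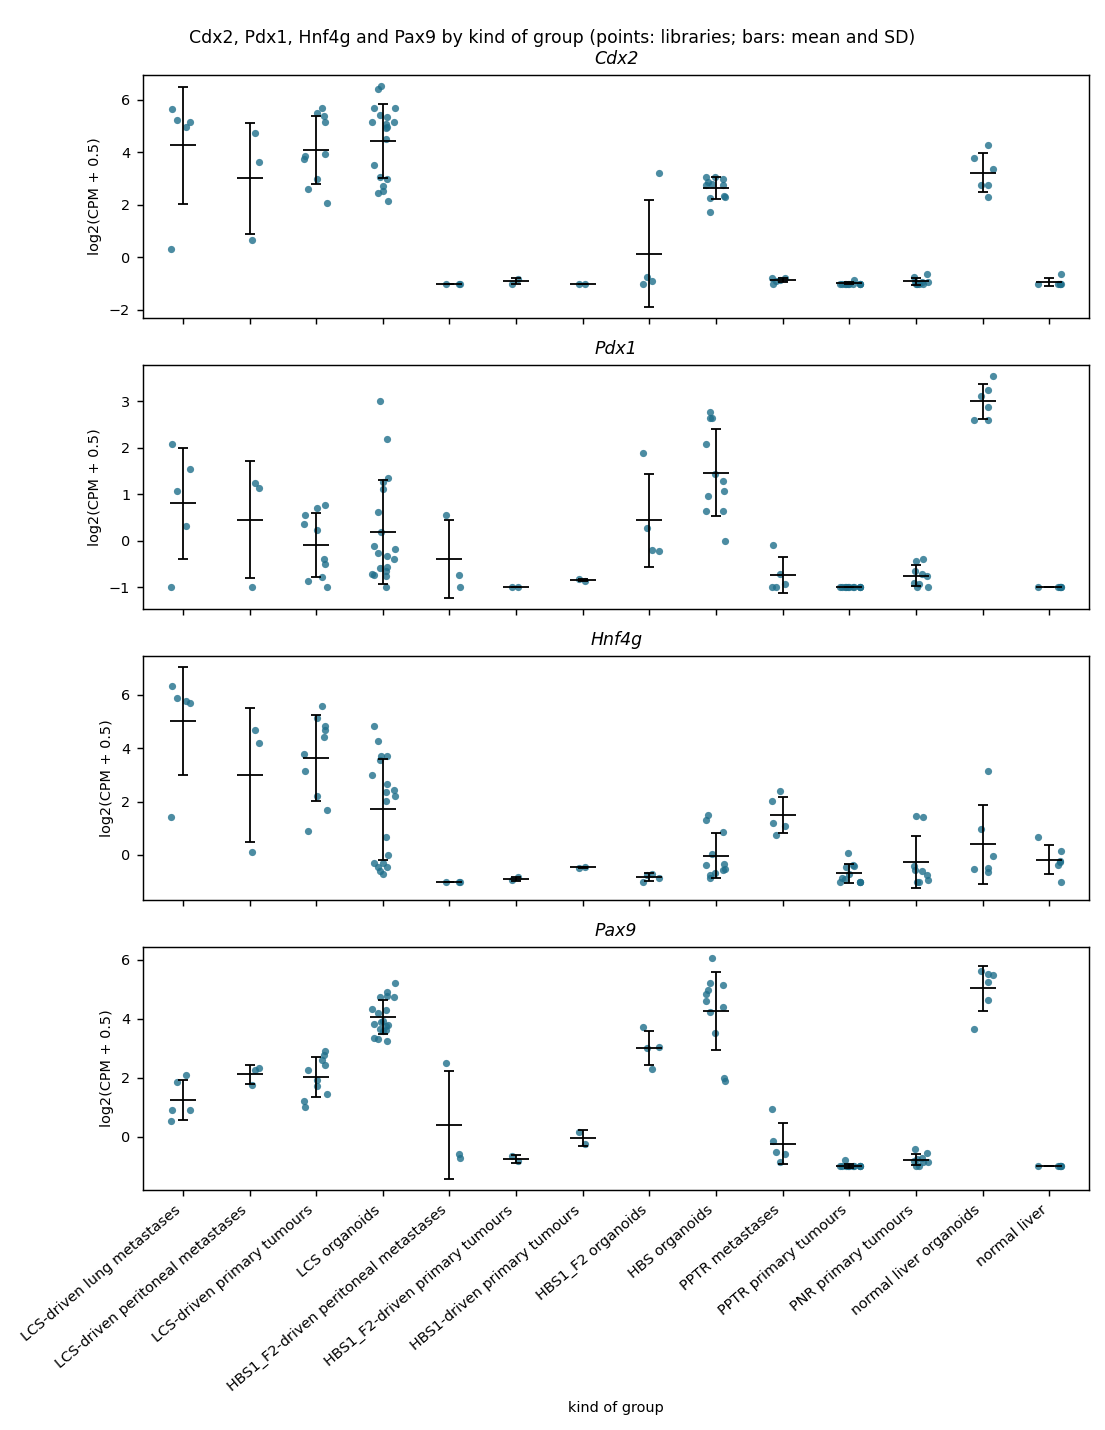
Level of Cdx2, Pdx1, Hnf4g and Pax9 as log2(CPM + 0.5) for each kind of library, 1 point per library, with the mean and SD of each kind as bars. Pdx1 and Pax9 had no read in the 6 normal livers and lay at 5.54 to 11.1 and 12.2 to 48.5 CPM in the 6 normal liver organoid libraries.

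Sox17 was spread widely in organoids. Normal liver organoids held 3.07 to 38.7 CPM (median 7.65), all above normal liver at 1.12 to 1.94 CPM (median 1.46), with a log2 fold change of 2.89 ± 0.56 (SE, 6 against 6). LCS organoids had 0 to 4.66 CPM (median 0.208) and HBS organoids 0 to 9.50 CPM (median 0.299), and LCS lines differed from normal liver organoids by -3.79 ± 0.91 on the log2 scale. The summed level of 14 endothelial genes was at most 5.19 CPM in normal liver organoids and 20.8 CPM in LCS organoids, against 483 to 822 CPM in liver. In PPTR primary tumours Sox17 was 1.93 to 12.6 CPM (median 2.84), and its highest library, tumour 9, also had the highest endothelial sum of the group at 2154 CPM. The log2 fold change of Sox17 over liver was 1.17 ± 0.37, and 0.54 with the share of counts in ribosomal repeats as a covariate, a share that was 0.21% to 18.3% in PPTR primary tumours and 10.7% to 25.8% in liver.

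Gata4 and Gata6 had opposite patterns between liver and organoids. Gata4 was 0 to 0.141 CPM in normal liver organoids (median 0.035) and 7.30 to 20.03 CPM in normal liver (median 13.3), a log2 fold change of -7.93 ± 0.52. Gata6 was 38.3 to 78.2 CPM in normal liver organoids (median 50.2) and 1.74 to 8.29 CPM in liver (median 4.11), a log2 fold change of 3.42 ± 0.33. Neither gene overlapped between the groups, where 74.8% of all genes tested were called. Over the 26 labelled groups the mean levels of this pair had a Pearson r of -0.726 on the log2(CPM + 0.5) scale, a description in which groups share lines and depth.

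LCS lines differed among themselves in both genes. Gata4 averaged 22.1 CPM in LCS1, 14.01 in LCS2 and 2.31 in LCS3, but 0.287 in LCS4 and 0.423 in LCS5, where HBS organoids held 0.022 to 1.15 CPM (median 0.367). LCS1 and LCS2 were thus within or above the range of normal liver. Gata6 averaged 12.7 CPM in LCS1, 29.0 in LCS2, 40.8 in LCS3, 37.6 in LCS4 and 57.4 in LCS5, lowest in the line with the most Gata4, and ran from 7.24 to 91.7 CPM over the libraries (median 33.7). The log2 fold change of Gata4 was 7.21 ± 1.08 over normal liver organoids and 4.25 ± 1.07 over HBS lines, and within the identifier block of LCS3 and LCS4 they were 3.82 ± 1.39 (against 2 normal libraries) and 1.44 ± 0.97 (against 4 HBS lines). HBS1_F2 organoids had 2.09, 1.76, 6.74 and 2.20 CPM of Gata4, with 3.68 ± 2.65 CPM (SD, n = 3) without library 2.

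Tumours held both factors. Gata4 was 0.535 to 12.9 CPM in LCS-driven primary tumours (median 10.5), 5.33 to 15.3 CPM in PPTR primary tumours (median 10.7) and 0.307 to 8.82 CPM in PNR primary tumours (median 5.43), against 7.30 to 20.03 CPM in normal liver. The log2 fold change over liver was -0.51 ± 0.23 for PPTR and -1.41 ± 0.52 for PNR tumours. Gata6 was 3.15 to 21.6 CPM in PPTR primary tumours (median 7.92) and 15.5 to 64.7 CPM in PNR primary tumours (median 17.9), where all 9 lay above all livers, with log2 fold changes over liver of 1.02 ± 0.36 and 2.60 ± 0.45. The PPTR value of Gata6 was 0.57 ± 0.28 within the identifier block shared with liver, and 0.12 when the ribosomal share entered as covariate. PNR tumours 7 and 9 had the lowest Gata4 of their group, at 0.479 and 0.307 CPM, the highest Gata6, at 59.0 and 64.7 CPM, and biliary marker sums of 13216 and 16269 CPM against at most 5596 CPM in the other 7 tumours. PNR libraries fell into closely alike sets, tumours 2 and 3 (SD of log2 ratios 0.230), tumours 4, 5 and 6 (0.223 to 0.295) and tumours 7 and 9 (0.345), against 0.487 to 1.21 in the other pairs, and the labels do not say whether they share an animal. With each set summed, the log2 fold change over liver was -1.35 ± 0.56 for Gata4 and 2.66 ± 0.45 for Gata6. No PNR tumour lay in the identifier block of the livers, so block and tissue cannot be told apart there.

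**Figure D3:**
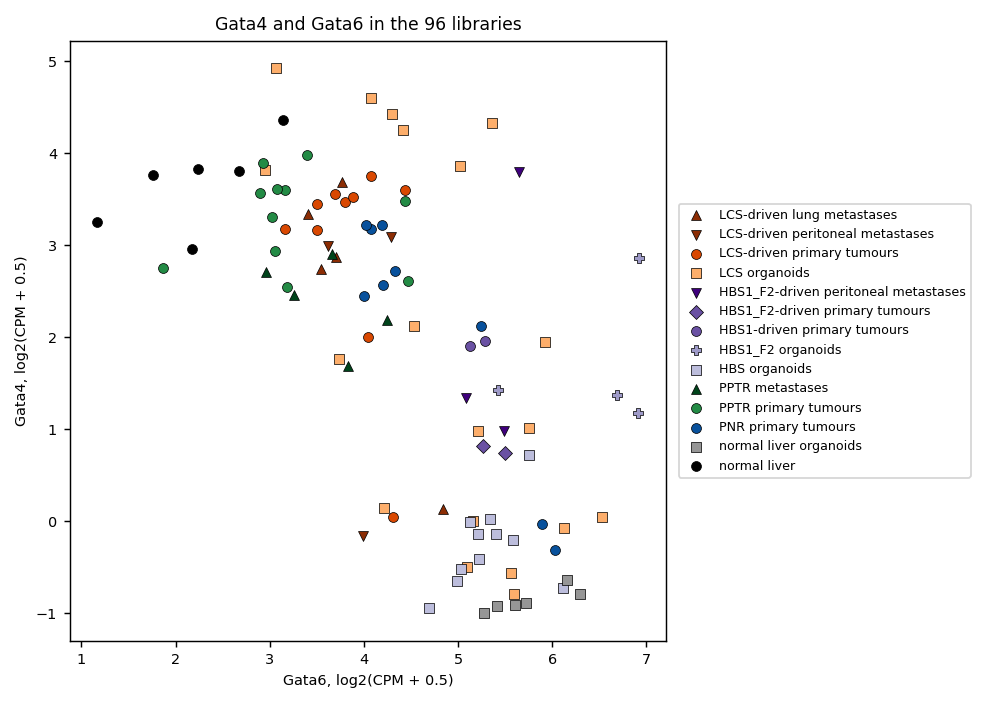
Gata4 (vertical axis) against Gata6 (horizontal axis) in every library, both as log2(CPM + 0.5), with colour and shape by kind. Normal liver organoids lay at 0 to 0.141 CPM of Gata4 and 38.3 to 78.2 CPM of Gata6, normal liver at 7.30 to 20.03 and 1.74 to 8.29 CPM, and LCS organoids spread over 0.078 to 29.9 CPM of Gata4.

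Ebf1 was higher in normal liver organoids than in LCS organoids and most livers. It was 3.71 to 40.2 CPM in normal liver organoids (median 18.6) and 0.149 to 4.29 CPM in liver (median 1.22), a log2 fold change of 3.46 ± 0.64. 9 B cell genes summed to 0.433 to 4.87 CPM and 12 fibroblast and stellate cell genes to 1.72 to 6.52 CPM in those organoids, against 5.34 to 85.1 and 329 to 890 CPM in liver, so both marker sets were low where Ebf1 was high. All 19 LCS organoid libraries, at 0 to 1.48 CPM (median 0.062), lay below all normal liver organoids, a log2 fold change of -6.70 ± 0.98. HBS lines ran from 0.031 to 23.1 CPM, the highest being HBS6.

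In LCS-driven primary tumours Ebf1 was 0.265 to 15.5 CPM (median 1.36), and tumours 2, 8 and 10, at 13.4, 15.5 and 8.0 CPM, exceeded the other 7, at most 2.19 CPM. Their fibroblast and stellate cell sums were 23935, 16050 and 85662 CPM within a group range of 2792 to 85662 CPM, and their intestinal epithelium sums were 441.2, 396 and 408 CPM against 1120 to 3267 CPM in the other 7. Of these 3, tumour 10 had the highest fibroblast and stellate cell sum and the lowest Ebf1. The part of stroma in Ebf1 was not tested. In the HBS1 lineage, Ebf1 was 15.2 and 8.64 CPM in HBS1-driven primary tumours and 14.1, 0, 25.0 and 28.4 CPM in HBS1_F2 organoids, the library at 0 being library 2, without which the mean was 22.5 ± 7.48 CPM (SD, n = 3). The fibroblast sum was 4.31 CPM in that library and 633 to 3988 CPM in the other 3.

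Across all genes, edgeR's quasi-likelihood test with Benjamini-Hochberg adjustment called a gene where adjusted p was under 0.05. The members called are counted here beside the share of all genes called, and nothing is read from the counts, because these contrasts may have served to choose members. PPTR primary tumours against normal liver had 2 of 4 members called, where 33.0% of all genes were. It was 3 of 4 beside 49.3% for PNR primary tumours against liver (1 of 4 with closely alike PNR libraries summed), and 3 of 4 beside 52.2% for PPTR against PNR primary tumours. Normal liver organoids against liver had 7 of 7 beside 74.8%. LCS lines against normal liver organoids had 4 of 8 beside 6.0% (2 of 7 without LCS1, and 1 of 7 without LCS2 or without LCS3). HBS lines against normal liver organoids had 0 of 7 beside 0.0800% (2 had an unadjusted p under 0.05, and DESeq2 called 0). LCS against HBS lines had 2 of 8 beside 5.08% (0 without LCS1, LCS2 or LCS3, and 4 without LCS4 or LCS5). LCS-driven against PPTR primary tumours had 4 of 7 beside 57.8%, and LCS-driven primary tumours against LCS lines 4 of 9 beside 61.9%. The count of PPTR tumours against liver fell to 1 without PPTR tumours 10 and 11, and to 0 with the ribosomal share as covariate. That of PPTR against PNR tumours fell to 2 without PNR tumours 7 and 9. Within identifier block 045 it was 0 of 8 for LCS lines against normal liver organoids and against HBS lines, and 1 of 7 for HBS lines against normal liver organoids. Within block 016 it was 1 of 9 for LCS-driven tumours against LCS lines and 5 of 7 for LCS-driven against PPTR tumours (2 of 7 within block 044). Members not tested did not pass the filter on low counts. The comparisons with normal liver share its 6 libraries, and those with normal liver organoids share theirs.

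Genes of intestinal epithelium were followed beside Cdx2 and Hnf4g. In LCS-driven against PPTR primary tumours, 13 of the 15 tested genes of a list of 21 were higher and 1 lower, where 57.8% of all genes were called, with a median log2 fold change of 3.67 against 0.02 over all genes. A gene near 0 in one group passes the filter through the other, so its direction was fixed by the filter. Lgals4, a lectin of the gut lining, averaged 614 CPM in LCS-driven and 5.04 CPM in PPTR primary tumours, and Myo1a, a brush border myosin, averaged 70.1 and 0.118 CPM. In LCS against HBS lines, 7 of 17 were higher and 1 lower beside 5.08% of all genes called (median 4.04 against 0.01), and in LCS lines against normal liver organoids 3 of 11 were higher and none lower beside 6.0%: the brush border cadherins Cdhr2 and Cdhr5, at 115 and 110 CPM in LCS lines against 0.584 and 0.852 CPM in normal liver organoids, and the brush border protease Mep1a.

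Genes of stomach epithelium were followed beside Pdx1 and Pax9. Of a list of 20, 6 passed the filter in normal liver organoids against liver and were called higher, where 74.8% of all genes were called, but Vsig1, Slc26a9, Slc9a4 and Aqp5 were at 0 to 0.136 CPM in liver and passed through the organoids, which fixed their direction. Ctse, a stomach protease gene measured in both, averaged 87.6 CPM in normal liver organoids and 24.1 CPM in liver. Of 11 tested intestinal genes 8 were higher and 2 lower. In LCS lines against normal liver organoids, Muc5ac, the surface mucin of the stomach, was higher, at 22.3 against 1.15 CPM. HBS organoids averaged 39.1 CPM of Muc5ac, which was not called there. The ion transporters Slc9a4 and Slc26a9 were lower in LCS lines, at 0.278 against 40.4 CPM and 1.08 against 19.1 CPM, out of 9 tested stomach genes. Slc9a4 was near 0 in LCS lines and passed the filter through normal liver organoids, which fixed its direction. Of 19 factors of endoderm and liver, 9 were higher and 6 lower in normal liver organoids than in liver, a share near the 74.8% of all genes, with Klf5 at 73.8 against 0.109 CPM and Nr5a2, which encodes a nuclear receptor, at 0.205 against 53.4 CPM. Gata5, the relative of Gata4 and Gata6, averaged 17.97 CPM in normal liver organoids against 0.212 CPM in liver. Of 18 genes of pancreas development and function, which Pdx1 also serves, 1 passed the filter there, the elastase gene Cela1, and it was lower, at 0.705 against 16.8 CPM.

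The genes whose mean log2(CPM + 0.5) over the 26 groups was most like each member, out of 15062 genes, are given by Pearson r as a description. They were Lgals4 and Nkain1 for Cdx2 (0.95 and 0.94), Btnl4, Sis and Itln1 for Cdx1 (0.919, 0.898 and 0.897), and Trim31, Tcf23 and Fam189a2 for Hnf4g (0.914, 0.914 and 0.905). Sis encodes the brush border enzyme sucrase-isomaltase. For Pdx1 they were Onecut3, Ivl and Pvrl4 (0.922, 0.915 and 0.913), for Pax9 Ankrd1, Npepps and Rrp1b (0.966, 0.962 and 0.961), and for Sox17 Xlr4b, Xlr4c and Adam22 (0.825, 0.756 and 0.743). Gata4 had Slc43a3, Rnf144b and Mettl7b (0.907, 0.901 and 0.895), Gata6 had Ptpn4, Rassf10 and Zfp142 (0.919, 0.908 and 0.907), and Ebf1 had Lrrc2, Ifnar1 and Dstyk (0.794, 0.785 and 0.762). Among the members themselves, Pdx1 with Pax9 had an r of 0.801, Cdx2 with Pax9 0.772 and Pdx1 with Gata4 -0.762.

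Dbx2 was seen in PPTR metastases and reached 1 CPM in no other library. It was 14.6 and 13.6 CPM in the intestine metastases, 8.62 CPM in the lung metastasis, 15.5 CPM in the peritoneal metastasis and 14.2 CPM in the intrahepatic metastasis, against 0 reads in all 11 PPTR primary tumours. All 5 metastases of 4 sites were thus high, the lung metastasis lowest, in both identifier blocks that hold them (2 and 3 metastases). Dbx2 was at least 1726-fold higher, with 3 counts over the primaries taken as the floor. The highest value in any other library was 0.371 CPM. Since Dbx2 may have been chosen for this contrast, no test is given for it.

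The nearest genes of Dbx2 in RefSeq's order were looked at after its values were seen. Of 8 protein-coding genes on each side, 14 were in the count files and 12 were tested. 5 rose and 1 fell in PPTR metastases against PPTR primary tumours, where 33.4% of all genes tested were called. Ano6, the next gene on one side, averaged 89.2 CPM in metastases and 30.4 CPM in primaries (log2 fold change 1.55 ± 0.20, adjusted p = 1.9356e-05, edgeR). Tmem117 averaged 28.7 and 3.19 CPM (3.11 ± 0.75, adjusted p = 0.004134), and the amino acid transporter gene Slc38a1 79.5 and 6.40 CPM (3.65 ± 0.32, adjusted p = 2.361e-07). Nell2, the next gene on the other side, averaged 0.137 and 0.005 CPM and did not pass the filter. The genes most like Dbx2 were Grp, Tmprss15 and Dpp10 (Pearson r 0.981, 0.976 and 0.974 over the 26 groups). Grp, which encodes gastrin-releasing peptide, was 21.6 to 187 CPM in PPTR metastases and at most 0.266 CPM in PPTR primary tumours.

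Leaving out Dbx2, 2 of the 5 members tested between PPTR metastases and PPTR primary tumours were called, Hnf4g and Gata4, beside the 33.4% of all genes. It is not recorded which contrasts served to choose which members, so the p-values of members in metastases against primaries describe these libraries and are not independent evidence. Hnf4g was 3.58 and 1.20 CPM in the intestine metastases, 4.74 CPM in the lung metastasis, 1.80 CPM in the peritoneal and 1.61 CPM in the intrahepatic metastasis, against 0 to 0.562 CPM in the primaries (median 0.043). All 5 metastases lay above all primaries, with a log2 fold change of 4.02 ± 0.60 (adjusted p = 5.028e-05, edgeR). Hnf4g was near 0 in the primaries and passed the filter on low counts through the metastases, which fixed its direction. Its p-values are therefore a description and no evidence of a rise. Within the 2 identifier blocks the log2 fold change of Hnf4g was 5.06 ± 0.71 (2 against 8, adjusted p = 0.0002386, edgeR) and 2.61 ± 0.87 (3 against 3, adjusted p = 0.1237, edgeR). Gata4 was 6.03 and 4.04 CPM in the intestine metastases, 2.71 CPM in the lung, 5.01 CPM in the peritoneal and 6.98 CPM in the intrahepatic metastasis, against 5.33 to 15.3 CPM in the primaries (median 10.7).

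The Gata4 groups overlapped, and it fell in the metastases (log2 fold change -0.997 ± 0.279, adjusted p = 0.01087, edgeR). Within the identifier blocks its log2 fold change was -1.21 ± 0.45 (adjusted p = 0.07062, edgeR) and -0.78 ± 0.40 (adjusted p = 0.2723, edgeR), so its call did not hold in either. Gata6 (0.26), Sox17 (-0.30) and Ebf1 (0.89, adjusted p = 0.1096, edgeR) did not pass the test, and Sox17 passed, at -1.46 (adjusted p = 0.02276, edgeR), once the lung metastasis was left out, whose 9.95 CPM stood against 0.817 to 1.75 CPM in the other 4. That library had 1823 CPM of lung epithelium genes. Over all alternatives the adjusted p in edgeR or DESeq2 ran from 8.52e-07 to 0.1237 for Hnf4g, from 0.002692 to 0.2723 for Gata4 and from 0.02276 to 0.9417 for Sox17. Cdx1, Cdx2, Pdx1 and Pax9 did not pass the filter on low counts in this comparison, with at most 1.40 CPM in any metastasis.

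Summed hepatocyte genes were 8357 to 43500 CPM in PPTR metastases against 39066 to 131140 CPM in the primaries, and biliary genes 3056 to 14375 CPM against 462 to 11141 CPM. Of the tested intestinal genes 6 rose and 1 fell out of 13, where 33.4% of all genes were called (median log2 fold change 1.87 against -0.02 over all genes), among them the intestinal cadherin Cdh17, at 190 against 13.5 CPM (3.82 ± 0.59, adjusted p = 0.0001074, edgeR). Fabp2, the intestinal fatty acid binding protein gene, fell to 20.2 CPM in metastases against 249 CPM in primaries. It also averaged 82.5 CPM in normal liver, so in these data it is not a marker of intestine alone. Of 8 tested stomach genes 6 rose and 1 fell (median 4.21), with Anxa10 at 9.77 against 0.100 CPM. Several of them, Anxa10 included, were near 0 in the primaries and passed the filter through the metastases. This fixed their direction, so no rise of stomach genes is read from the count or the median. Ctse was the one that fell, at 7.603 against 64.0 CPM. Of 19 endoderm and liver factors 2 rose and 5 fell, a share near that of all genes, with Sox9, a duct factor, at 31.4 against 9.78 CPM and Cebpa, a hepatocyte factor, at 123 against 244 CPM.

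**Figure D4:**
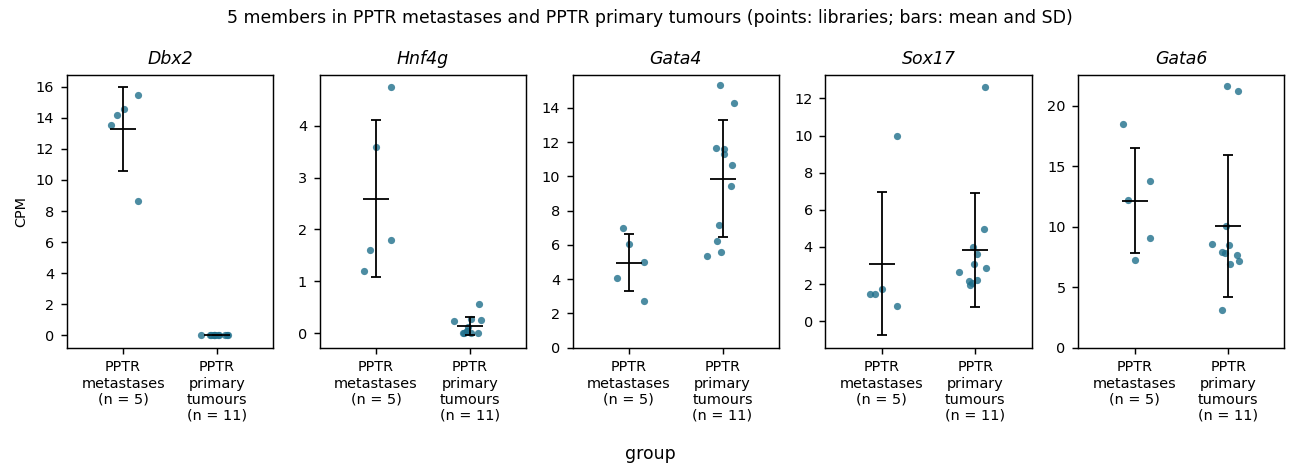
CPM of Dbx2, Hnf4g, Gata4, Sox17 and Gata6 in each of the 5 PPTR metastases (left) and 11 PPTR primary tumours (right), 1 point per library with the mean and SD as bars. Dbx2 lay at 8.62 to 15.5 CPM in metastases and at 0 in every primary, Hnf4g did not overlap, and the other 3 genes did.

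In LCS-driven lung metastases, set against LCS-driven primary tumours, 1 of the 9 members tested passed the test, where 17.2% of all genes did. Sox17 was 3.15, 4.21, 2.91, 9.51 and 5.41 CPM in the lung metastases and 0.925 to 2.86 CPM in the 10 primaries (median 1.59). All 5 metastases were above all primaries, and Sox17 rose by a log2 fold change of 1.57 ± 0.31 (adjusted p = 0.002276, edgeR). Lung metastases 1 and 2 were closely alike (SD of log2 ratios 0.240, with up to 1.10 in the other pairs), and with both summed to 1 unit it was 1.66 ± 0.33 (4 against 10, adjusted p = 0.004253, edgeR). Within the identifier block that holds both groups (3 against 3) it was 2.04 ± 0.61 (adjusted p = 0.2947, edgeR), and over all alternatives the adjusted p ran from 4.81e-05 to 0.2947. The 14 endothelial genes summed to 337 to 433 CPM in lung metastases and 137 to 476 CPM in primaries, with Vwf, Tek, and 3 relatives of the members, Gata2, Gata3 and Sox7, higher and the liver sinusoid genes Stab2 and Clec4g lower. The part of lung endothelium in Sox17 was not tested.

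Hnf4g and Cdx2 were above the median of the primaries in 4 of the 5 lung metastases and low in lung metastasis 4. Gata4 was also low in lung metastasis 4, but lay within the range of the primaries in all 5. Hnf4g was 53.8, 57.9, 80.4, 2.18 and 51.3 CPM in the lung metastases, against 1.36 to 47.0 CPM in the primaries (median 17.0). Cdx2 was 30.8, 37.2, 49.2, 0.740 and 34.6 CPM, against 3.71 to 51.2 CPM in the primaries (median 14.3). Gata4 was 6.80, 9.59, 12.4, 0.599 and 6.17 CPM, against 0.535 to 12.9 CPM in the primaries (median 10.5). Metastasis 4 was the lowest of the 5 in each of these, and its 21 intestinal genes summed to 222 CPM against 3081 to 5818 CPM in the other 4.

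None of these 3 genes passed the test between lung metastases and primaries. Pax9 averaged 2.10 CPM in lung metastases and 3.98 CPM in primaries (log2 fold change -0.93 ± 0.40, adjusted p = 0.1143, edgeR). Pdx1 averaged 1.70 and 0.534 CPM (1.65 ± 0.90, adjusted p = 0.2137, edgeR). The log2 fold change of Cdx1 was 2.96 ± 1.04 (adjusted p = 0.05677, edgeR), 0.03 without lung metastasis 3, the library at 26 CPM, and 3.21 without lung metastasis 4 (adjusted p = 0.03232, edgeR), with a range over alternatives of 0.03232 to 0.9868. Of 20 tested intestinal genes 2 rose, Sis at 70.9 against 2.56 CPM (4.78 ± 1.25, adjusted p = 0.01497, edgeR) and Guca2a, a gut peptide hormone gene, at 93.8 against 21.9 CPM, and 1 fell. Of 15 tested stomach genes 3 rose, among them Cldn18 and Slc26a9, both of which lung epithelium expresses.

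In LCS-driven peritoneal metastases 0 of 9 members tested passed edgeR's test against the primaries, where 1.26% of all genes did. With 3 metastases, Cdx2 was 11.8, 1.06 and 26.1 CPM, Hnf4g 17.7, 0.587 and 25.2 CPM, and Gata4 7.43, 0.398 and 8.0 CPM, all within or below the range of the primaries. Metastasis 2 was the lowest in each, with an intestinal sum of 340 CPM against 1273 and 2212 CPM in the other 2. No member had an unadjusted p under 0.05 in edgeR, and DESeq2 called none. Metastasis 1 was the shallowest library of the series, and its values rest on few reads. It had 49 reads of Cdx2, 74 of Hnf4g, 31 of Gata4, 19 of Pax9 and 1 of Sox17. The share of counts in ribosomal repeats ran from 0.30% to 34.9% over the 3 metastases. With so few libraries of such unequal depth, the lack of calls does not show that the members were unchanged. Ebf1 was 5.52, 4.45 and 6.498 CPM in the peritoneal metastases and Pax9 4.56, 2.84 and 4.34 CPM, both within the range of the primaries. Of 20 tested intestinal genes none passed in either direction.

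**Figure D5:**
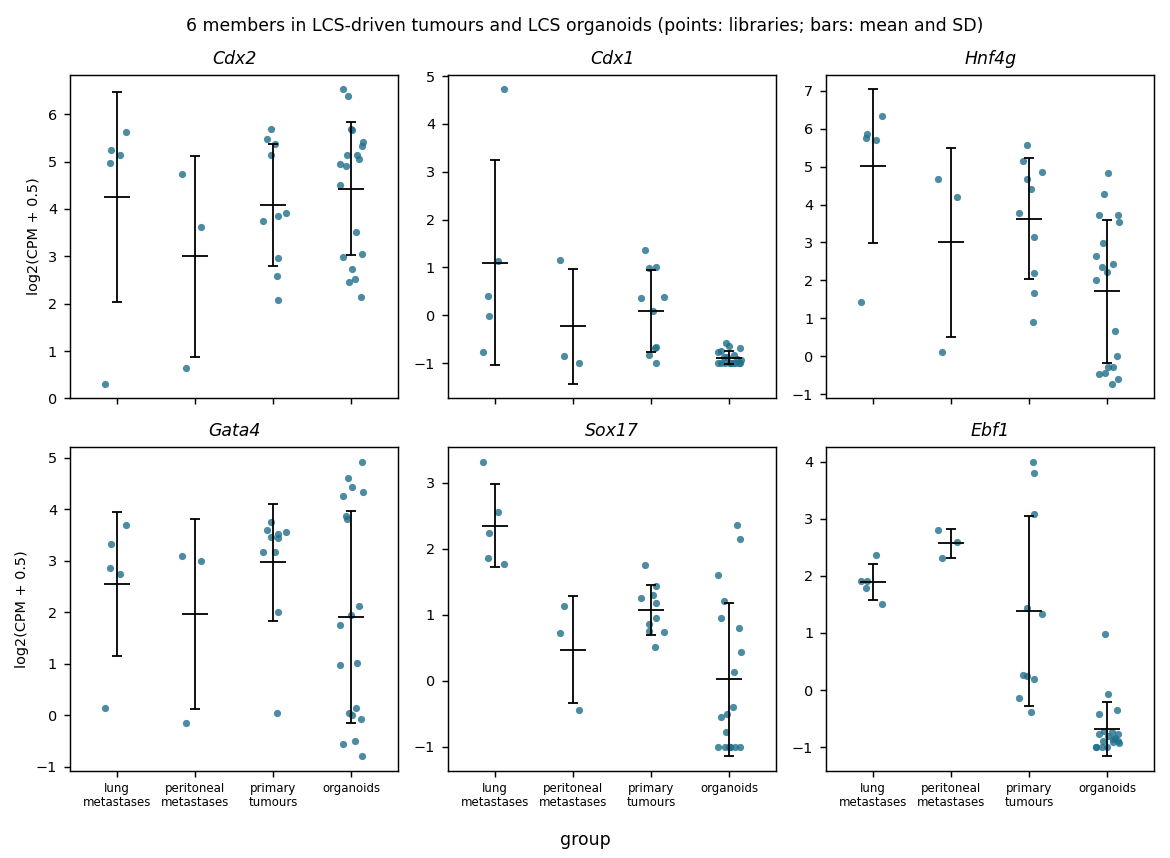
Level of Cdx2, Cdx1, Hnf4g, Gata4, Sox17 and Ebf1 as log2(CPM + 0.5) in LCS-driven lung metastases, peritoneal metastases, primary tumours and LCS organoids, left to right, 1 point per library with the mean and SD as bars. Lung metastasis 4 (0.740 CPM of Cdx2, 2.18 CPM of Hnf4g) and peritoneal metastasis 2 (1.06 and 0.587 CPM) lay below the rest of their groups, and Sox17 in the 5 lung metastases lay above all 10 primaries.

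HBS1_F2-driven peritoneal metastases were compared by values alone, with 3 metastases and 2 primaries. Gata4 was 1.47, 2.03 and 13.4 CPM in the metastases against 1.27 and 1.17 CPM in the HBS1_F2-driven primary tumours, and 3.25 and 3.37 CPM in HBS1-driven primary tumours. Metastasis 3 was the highest in Gata4 and also held 0.972 CPM of Pdx1 and 5.17 CPM of Pax9.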

How the data were processed

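RNA of 96 mouse libraries was sequenced. The authors deposited raw read counts per gene symbol, whole numbers, with 5 entries that name no gene (16.6% to 90.5% of a library's total), left out here. The tools BWA, STAR and HTSeq and build mm9 are named per the submitters' processing notes. The sources used here give neither versions nor settings. No positions on mm9 were used.

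CPM were computed with TMM factors over all libraries. Comparisons used edgeR 4.0.16 (quasi-likelihood, TMM, filterByExpr minimum count 10, Benjamini-Hochberg over all genes tested, threshold 0.05) in R 4.3.3 with limma 3.58.1. The fit was also run on simulated data for PPTR primary tumours against liver, LCS lines against normal liver organoids, and PPTR metastases against PPTR primary tumours. The outcome is not given here, so nothing is drawn from it. The other comparisons were not simulated. Standard errors are the size of the log2 fold change over the root of F. Libraries of an LCS or HBS line were summed, so the line was the replicate, and HBS1_F2 was kept out of HBS. No 2 libraries of a group agreed within sampling noise. Intervals and floors (95%, 3 counts) cover counting error only.

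The members and lists were chosen with earlier results of these data known. All members are named. From each list, up to 4 called genes were named if the higher of their group means reached 5 CPM. Genes most like a member were the 3 with the highest r among genes reaching a group mean of 1 CPM. Alternatives were DESeq2 1.42.0, no filter, libraries in place of lines, leave-one-out, and fits within identifier blocks or with a covariate. One of the genes most like Cdx2 is not reported here.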

Additional observations from a re-analysis of the deposited data

Results flagged for a closer look

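Of 77 sets of 4 to 10 libraries examined for a single library far from the rest, 13 held one by Dixon's criterion. Chance meets this criterion in about 1 in 20 independent sets of normally distributed values. These sets share libraries between genes and are not independent, so the 13 cannot be set against that rate. No explanation was tested.

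LCS-driven lung metastasis 4 stood apart in 4 genes: Cdx2 at 0.740 CPM (30.8 to 49.2 CPM in the other 4), Gata4 at 0.599 CPM (6.17 to 12.4), Hnf4g at 2.18 CPM (51.3 to 80.4) and Gata6 at 28.2 CPM (10.1 to 13.1). Its fibroblast and stellate cell sum was 6793 CPM against 1016 to 1341 CPM in the other 4. LCS-driven primary tumour 8 had 0.535 CPM of Gata4, against 3.51 to 12.9 CPM in the other 9.

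The library labelled HBS1_F2 organoid 2 stood apart in Cdx2, at 8.63 CPM (0 to 0.101 CPM in the other 3), and in Ebf1, at 0 CPM (14.1 to 28.4). In the same group organoid 3 had 6.74 CPM of Gata4 (1.76 to 2.20 in the others) and organoid 4 had 42.5 CPM of Gata6 (102 to 121).

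PPTR lung metastasis 1 stood apart in Sox17, at 9.95 CPM (0.817 to 1.75 CPM in the other 4 metastases), and in Dbx2, at 8.62 CPM (13.6 to 15.5). HBS1 organoid 2 had 6.25 CPM of Cdx2 (4.31 to 4.59), and LCS3 organoid 4 had 2.55 CPM of Sox17 where the other 3 libraries of the line had no read.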

How the results depend on the processing

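Members kept direction and side of the threshold in 587 fits with a changed setting, gained a call in 17, lost one in 33 and turned sign in 26, none of them called in either fit. No paired analysis was possible because the labels give no replicate numbers shared between groups. The causes were not tested.

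The number of genes called moved by over 1.5 times as follows. PPTR primary tumours against liver gave 2156 with the ribosomal share as a covariate (5045 without). LCS lines against normal liver organoids gave 1912 with DESeq2, 2350 with libraries as replicates, 438 to 1472 leaving out 1 line and 8 within identifier block 045 (934 as reported). HBS lines against normal liver organoids gave 157 with no filter, 369 with DESeq2, 426 with libraries as replicates and 71 within block 045 (12). LCS against HBS lines gave 2026 with DESeq2, 3995 with libraries as replicates, 280 to 1731 leaving out 1 line and 137 within block 045 (916). LCS-driven against PPTR primary tumours gave 1673 within block 044 (9209). Lung metastases gave 1729 to 3708 leaving out 1 metastasis, 1783 with metastases 1 and 2 summed and 25 within block 044 (3177). Peritoneal metastases gave 660 with DESeq2, 499 without LCS-driven primary tumours 2 and 8, 6 to 120 leaving out 1 metastasis and 0 within block 044 (232). PPTR metastases gave 865 within block 044 (5425).

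Sign changes, as log2 fold changes, were Ebf1 -0.90 in PPTR primary tumours against liver with the covariate. Within block 045 they were Cdx2 0.40 and Hnf4g 0.29 for HBS lines against normal liver organoids, and Sox17 4.63 for LCS against HBS lines. LCS-driven against PPTR primary tumours had Gata4 0.059 and Ebf1 -0.31 without tumours 2 and 8, and Gata6 -0.31 within block 044. LCS-driven primary tumours against LCS lines had Pdx1 0.77 and Gata4 -0.99 within block 016, and Gata4 -0.12, -0.21 and -0.20 without LCS3, LCS4 or LCS5 (-0.21 to 0.97 leaving out 1 line). Lung metastases had Gata6 -0.32 without metastasis 4 (-0.32 to 0.17) and Ebf1 0.79 without primary tumours 2 and 8. Peritoneal metastases, leaving out 1, ran from -3.82 to 0.58 for Cdx1 (0.18 and 0.58 reversed), -0.44 to 1.75 for Pdx1, -0.015 to 0.19 for Gata6, -0.94 to 0.25 for Hnf4g and -0.23 to 0.19 for Pax9, and within block 044 gave Cdx1 0.96, Cdx2 0.54, Hnf4g 0.44 and Ebf1 -0.59. PPTR metastases had Gata6 -0.35 within block 044 and Sox17 0.93 within block 016.

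Values near 0 CPM rest on few reads, and groups of 2 or 3 libraries allow few calls. The settings without primary tumours 2 and 8, with lung metastases 1 and 2 summed, and those within identifier blocks, were chosen after seeing the data.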
